A study of Mus musculus with 6 samples.

Results

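The genes described here are transcription factors that bear on axon growth of retinal ganglion cells (RGCs), which send their axons through the optic nerve to the brain: the Krüppel-like factors Klf4, Klf6, Klf7, Klf9, Klf13 and Klf16, and the Sox factors Sox4, Sox11 and Sox12. They were chosen by name for their known roles, with earlier results of these data known. Of these 9 genes, 8 have a row among the 10162 genes of the deposited expression table, and the expression of Klf4 was not analysed here. Poly-A RNA was sequenced from wild-type mice of strain C57/6NCrl in 3 groups of 2 libraries. The adult control group had received AAV2 that encodes mCherry and a scramble shRNA mimic. In the adult miR-1247 group AAV2 encoded a miR-1247-5p mimic instead of the scramble. RGCs of embryonic day 18 (E18) were untreated. Each adult condition drew on 10 retinas, with about 5000 RGCs panned on Thy1 and then sorted for mCherry, whereas about 50000 E18 RGCs were panned on Thy1 and not sorted. Age, vector, sorting and cell number therefore cannot be told apart between E18 and the adult. The promoter of the vector is not given in the sources used here. Nothing in the labels tells if both libraries of 1 group were made from different animals, so p-values reflect only how far these libraries differ, and that may be technical.

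Krüppel-like factors bind GC-rich and CACCC sequences through zinc fingers at the C terminus. Forced expression of Klf4 or Klf9 reduces neurite growth of RGCs, and Klf13 and Klf16 also restrain it in cultured neurons, whereas Klf6 and Klf7 promote it. Klf9 is a target of thyroid and glucocorticoid hormone receptors, which raise it as the brain matures. Sox4, Sox11 and Sox12 form the SoxC group, which bind DNA through an HMG box and are needed for the making and differentiation of RGCs. Forced Sox11 promotes axon regeneration of some adult RGC types.

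All values are FPKM (fragment numbers scaled to transcript length and to the mapped total), a scale per length on which genes can be compared. Differences are on the log2(FPKM + 1) scale with their standard error, which understates changes of weakly expressed genes. A gene is called where the limma p-value, adjusted over the 9987 genes tested, is under 0.05. All 8 genes passed the filter for testing, a 6-library mean no lower than 1 FPKM. Klf9 passed through the adult libraries, since it was under 1 FPKM at E18, while the others were above 1 FPKM in every library. Fewer cells that express a gene and less RNA per cell cannot be told apart in such bulk libraries.

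The sequences before the start sites are shown for the Krüppel-like and the Sox factors with the largest developmental differences, with matches to 3 motifs in capitals. The motifs were searched on both strands: the GC box GGGCGG and the CACCC box, which Krüppel-like factors can bind, and the nuclear receptor motif AGGTCA, which hormone receptors can bind. Each window holds the 250 bases before the start in RefSeq (GRCm38.p6), and 8 of the 9 genes had one (all but Klf16).
Klf9, chr19:23140976-23141225, plus strand: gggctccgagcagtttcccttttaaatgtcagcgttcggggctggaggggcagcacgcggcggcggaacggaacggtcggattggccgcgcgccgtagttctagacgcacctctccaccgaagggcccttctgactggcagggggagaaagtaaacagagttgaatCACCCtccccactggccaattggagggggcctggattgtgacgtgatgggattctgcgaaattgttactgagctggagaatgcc
Klf7, chr1:64121390-64121639, minus strand: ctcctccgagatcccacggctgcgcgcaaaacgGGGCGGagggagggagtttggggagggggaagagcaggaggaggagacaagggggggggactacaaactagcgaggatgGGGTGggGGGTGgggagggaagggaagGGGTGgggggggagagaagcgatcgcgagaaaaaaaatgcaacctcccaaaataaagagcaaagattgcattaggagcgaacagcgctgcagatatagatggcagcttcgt
Sox4, chr13:28953700-28953949, minus strand: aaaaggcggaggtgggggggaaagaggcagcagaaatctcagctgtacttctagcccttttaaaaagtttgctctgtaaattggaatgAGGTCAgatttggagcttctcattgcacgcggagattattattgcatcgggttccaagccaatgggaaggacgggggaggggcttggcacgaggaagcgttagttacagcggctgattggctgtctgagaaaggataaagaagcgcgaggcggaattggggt
Sox11, chr12:27342719-27342968, minus strand: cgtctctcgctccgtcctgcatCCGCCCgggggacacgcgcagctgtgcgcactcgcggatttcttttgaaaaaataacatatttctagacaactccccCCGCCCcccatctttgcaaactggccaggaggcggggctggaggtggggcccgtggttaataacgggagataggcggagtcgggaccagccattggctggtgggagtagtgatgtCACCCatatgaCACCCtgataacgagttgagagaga
Klf9, the one gene of these 4 that was lower at E18, had 1 CACCC match and no GC box. Klf7 had 1 GC box and 3 CACCC matches, Sox11 had 2 of each, and Sox4 had neither but held 1 nuclear receptor motif. GC boxes also occurred for Klf4 (4 matches), Klf13 and Sox12 (3 each) and Klf6 (1), and 1 of the Klf13 matches overlaps its CACCC match. Of all 32851 windows of this length, 32.7% held a GC box, 52.0% a CACCC box and 14.0% a nuclear receptor motif. The GC content of the 8 windows ran from 50.8% for Sox4 to 74.4% for Sox12, against a median of 52.4% over all windows. A match describes the letters of the window and is not a measured binding site.

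The mature microRNA whose mimic was delivered is given with its seed (bases 2 to 8) in capitals. Below it stand the matches to the seed that the 3′ untranslated regions of the 9 genes hold, with the paired bases in capitals (canonical GENCODE transcripts, GRCm39).
miR-1247-5p: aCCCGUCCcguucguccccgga
Sox11, chr12:27389922-27389947, minus strand: tgtgatgtgtGGACGGGgccccagac
Sox4, chr13:29135351-29135376, minus strand: gcggagagtaGACGGGggcgaccttt
Sox11 held 1 match to the whole seed (GGACGGG), which 2.3% of 20702 genes hold in this region. Sox4 held 1 match to bases 2 to 7 (GACGGG), which 6.4% of the genes hold. The other 7 genes held neither. The untranslated region of Sox11 is 6957 bases long and that of Sox4 2780 bases, against a median of 1084 bases over all genes.

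At E18 the growth-promoting Krüppel-like factors and all 3 SoxC factors were higher than in adult control RGCs, and 2 of the 3 growth-restraining factors measured were lower. Sox11 was 31.5-fold, Sox4 13.0-fold, Sox12 6.65-fold, Klf7 6.22-fold and Klf6 1.75-fold higher at E18 as ratios of mean FPKM. Klf9 was 91.1-fold lower and Klf16 1.47-fold lower. The Klf9 ratio divides by an E18 mean of 0.585 FPKM, under 1 FPKM, so its size is uncertain. Of the 8 genes, 5 were called higher and 2 lower, and Klf13 was not called. Among all 9987 genes 40.2% were called higher and 29.8% lower, so a call alone does not set these genes apart. The median difference was 1.65 over the 8 genes and 0.16 over all genes tested. The latter was 0.02 under median ratio scaling, and the 7 calls held their direction under it.

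**Figure D1:**
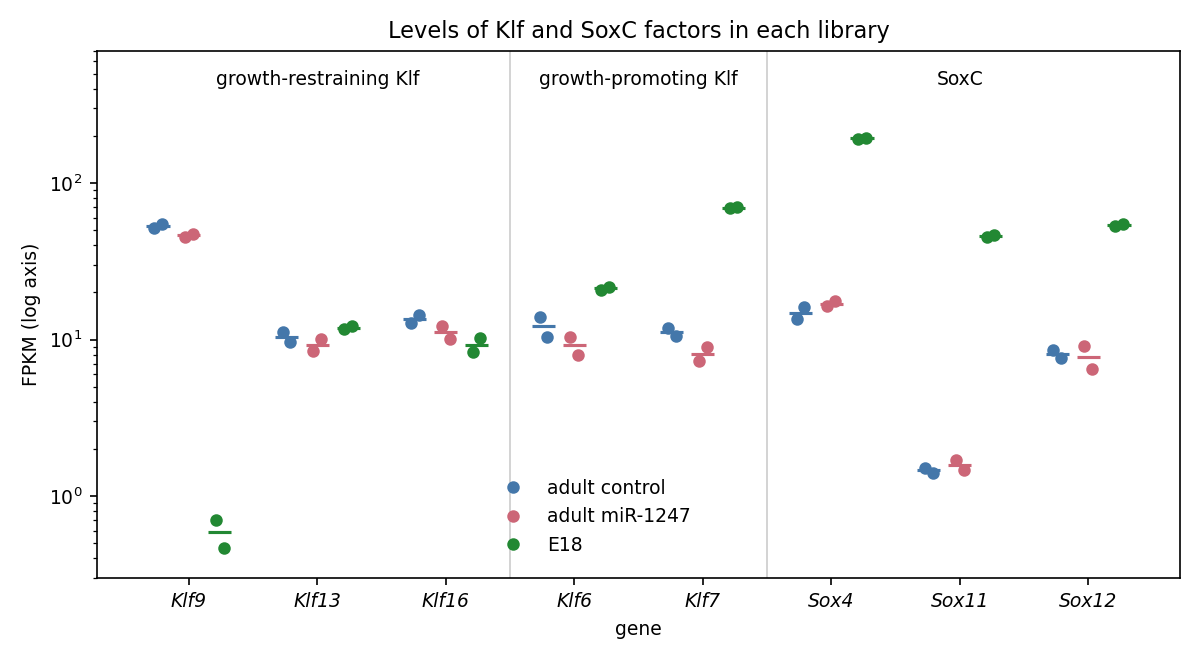
FPKM of each gene (horizontal axis, grouped by role) in each library on a log axis, with 2 points per group and a line at the group mean. Klf9 is at 45.4 FPKM or more in the 4 adult libraries and at 0.703 FPKM or less at E18. Klf6, Klf7, Klf13 and the 3 SoxC genes are higher in both E18 libraries than in any adult library, Klf13 only slightly. Among all genes tested, E18 and control values did not overlap for 85.5%, and E18 and miR-1247 values for 86.3%.

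Klf9 (chromosome 19, 23118187 to 23148497 in GRCm39, plus strand), a restrainer of axon growth, was at 51.6 and 55.0 FPKM in the 2 adult control libraries. In the adult miR-1247 libraries it was at 45.4 and 47.4 FPKM, and at E18 at 0.703 and 0.468 FPKM. It was the highest of the 5 Krüppel-like factors in every adult library and the lowest at E18. Its mean level exceeded that of 86.4% of the tested genes in adult control RGCs and of 0.9% at E18. The difference between E18 and adult control was −5.10 ± 0.118 (adjusted p = 3.11e-07). Against adult miR-1247 it was −4.90 ± 0.118 (adjusted p = 3.25e-07). Both comparisons use the same E18 libraries.

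Klf16, another growth-restraining factor (chromosome 10, 80402954 to 80413712, minus strand), was at 12.8 and 14.3 FPKM in adult control, 12.2 and 10.1 FPKM in adult miR-1247 and 8.26 and 10.2 FPKM in E18 RGCs. Every E18 value lay under both control values, and the E18 and miR-1247 values overlapped. The difference from control was −0.51 ± 0.156 (adjusted p = 0.0227), and that from miR-1247 was −0.25 ± 0.156 (adjusted p = 0.189). The call against control was lost without adult control library 2 (adjusted p = 0.105) and without E18 library 1 (adjusted p = 0.129), within a range of 0.00852 to 0.129 over 15 alternatives. Under median ratio scaling Klf16 was also called lower at E18 than in miR-1247 RGCs (−0.43, adjusted p = 0.0458, range over the alternatives 0.0458 to 0.5998).

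Klf13, also a restrainer (chromosome 7, 63536099 to 63588663, minus strand), differed less between the groups, with 11.1 and 9.65 FPKM in adult control, 8.46 and 10.0 FPKM in adult miR-1247 and 11.6 and 12.2 FPKM in E18 RGCs. Both E18 values lay just above the control values. The difference from control was 0.18 ± 0.138, with a 95% interval from −0.15 to 0.51 (adjusted p = 0.280). Both E18 values also lay above the miR-1247 values, and that difference, 0.33 ± 0.138 with a 95% interval from 0.0016 to 0.67, was not called (adjusted p = 0.0677). In GENCODE 5 other genes overlap this locus on the plus strand, among them E030018B13Rik. The kit that the labels name is not a stranded one, so that reads of the opposite strands cannot be told apart. Long noncoding genes on the opposite strand also overlap the loci of Klf7 (Gm13748) and Klf9 (Gm56648).

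The growth-promoting factor Klf7 (chromosome 1, 64068606 to 64161508, minus strand) was at 11.8 and 10.6 FPKM in adult control, 7.32 and 8.96 FPKM in adult miR-1247 and 68.9 and 70.1 FPKM in E18 RGCs. Both E18 values stood far above the 4 adult values. The difference from control was 2.54 ± 0.121 (adjusted p = 5.23e-06) and that from miR-1247 2.95 ± 0.121 (adjusted p = 2.64e-06). At E18 Klf7 was the highest of the 5 Krüppel-like factors, above 89.6% of the tested genes, against 43.5% in adult control.

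Klf6, the other growth-promoting factor (chromosome 13, 5911481 to 5920393, plus strand), was at 14.0 and 10.4 FPKM in adult control, 10.4 and 8.01 FPKM in adult miR-1247 and 20.9 and 21.7 FPKM in E18 RGCs. The adult libraries spread widely, and both E18 values lay above all of them. The difference from control was 0.77 ± 0.178 (adjusted p = 0.00728). This call was lost without E18 library 2 (adjusted p = 0.0542), within a range of 0.00556 to 0.0542 over 15 alternatives. The difference from miR-1247 was 1.13 ± 0.178 (adjusted p = 0.00125).

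Among the SoxC factors Sox4 (chromosome 13, 29132902 to 29137696, minus strand) had the highest level in every library. It was at 13.4 and 16.2 FPKM in adult control, 16.4 and 17.5 FPKM in adult miR-1247 and 191 and 195 FPKM in E18 RGCs, where its mean exceeded that of 97.2% of the tested genes. The difference between E18 and control was 3.62 ± 0.101 (adjusted p = 5.57e-07), and that between E18 and miR-1247 3.43 ± 0.101 (adjusted p = 6.53e-07). The long noncoding genes A330102I10Rik and Gm61652 overlap the locus, the first on the opposite strand.

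Sox11 (chromosome 12, 27384263 to 27392573, minus strand) was close to the filter in the adult, at 1.52 and 1.40 FPKM in control and 1.70 and 1.47 FPKM in miR-1247 RGCs. At E18 it was at 45.2 and 46.6 FPKM. It thus moved from above 4.1% of the tested genes in adult control to above 82.8% at E18. The difference from control, 4.25 ± 0.143 (adjusted p = 1.13e-06), was the largest increase among the 8 genes, and that from miR-1247 was 4.18 ± 0.143 (adjusted p = 1.27e-06). Sox12 (chromosome 2, 152235531 to 152239983, minus strand) was at 8.61 and 7.56 FPKM in control, 9.08 and 6.47 FPKM in miR-1247 and 53.1 and 54.4 FPKM in E18 RGCs. Its E18 values were well above the adult ones (2.59 ± 0.160 against control, adjusted p = 1.58e-05, and 2.66 ± 0.160 against miR-1247, adjusted p = 1.42e-05).

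**Figure D2:**
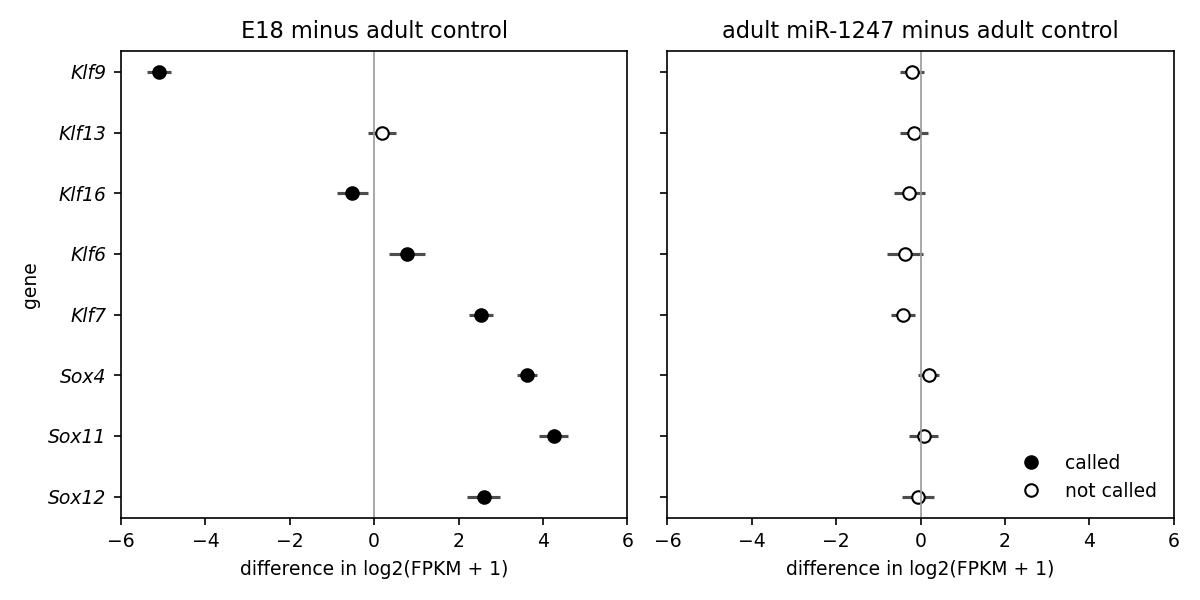
Difference in log2(FPKM + 1) (horizontal axis) of each gene (vertical axis) for E18 minus adult control (left) and adult miR-1247 minus adult control (right). Points are estimates over 2 libraries per group, bars are 95% intervals and filled points are called; 7 genes are called on the left and none on the right.

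The balance between the 2 kinds of Krüppel-like factor differed between ages. The growth-restraining Klf9, Klf13 and Klf16 made up 74.6% and 79.1% of the summed FPKM of the 5 factors in the control libraries and 78.8% and 79.9% in the miR-1247 libraries. At E18 they made up 18.6% and 19.9%. Their sum was 77.3 ± 2.44 FPKM (SD, n = 2) in control and 21.7 ± 1.59 FPKM at E18, while the sum of Klf6 and Klf7 was 23.3 ± 3.43 and 90.8 ± 1.44 FPKM. The mean log2 level of Klf6 and Klf7 minus that of the 3 restraining factors was −0.72 ± 0.206 in control, −0.91 ± 0.0366 in miR-1247 and 2.74 ± 0.000566 in E18 RGCs. Without Klf9, a choice made after seeing the data, this index was −0.03 ± 0.180, −0.21 ± 0.0182 and 1.79 ± 0.0906. Klf9 thus carried much of the restraining side in the adult, and the index was still higher at E18 without it. The summed FPKM of the SoxC genes was 24.4 ± 1.13 in control, 26.3 ± 1.25 in miR-1247 and 292 ± 4.83 in E18 RGCs. These sums are descriptions and were not tested.

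**Figure D3:**
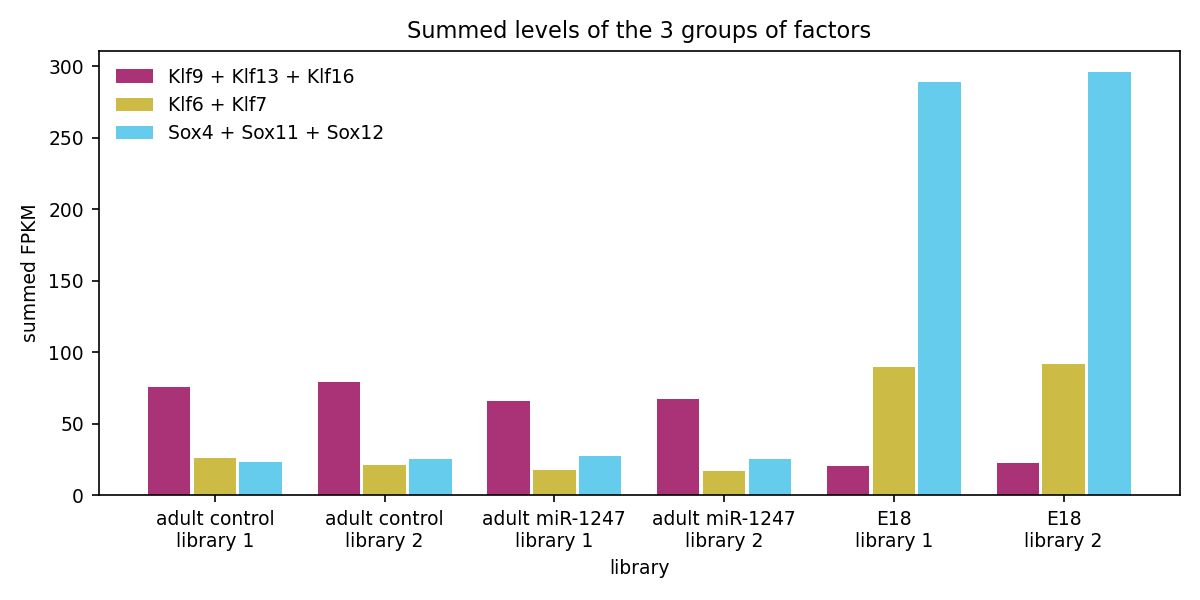
Summed FPKM of the growth-restraining Krüppel-like factors, the growth-promoting ones and the SoxC factors in each library (1 bar each, no error). The restraining sum is the largest of the 3 in every adult library, from 66.1 to 79.0 FPKM, and the smallest in both E18 libraries.

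The developmental values rest on sums for 3 of the genes. Klf9, Sox4 and Sox11 have 2 entries each with the same coordinates, and the table divides their values between them. For Sox11 one entry was at 20.7 FPKM in E18 library 1 and 38.2 FPKM in library 2, and the other at 24.5 and 8.34 FPKM. The sums, 45.2 and 46.6 FPKM, were much closer. In miR-1247 library 1 the adult signal of Sox11 stood in the second entry (1.70 FPKM), and in the other 3 adult libraries in the first. For Klf9 the first entry held 35.8 and 33.6 FPKM in control and 32.2 and 24.4 FPKM in miR-1247 RGCs, and the second 15.9, 21.4, 13.1 and 23.0 FPKM. For Sox4 nearly all of the signal of the control and E18 libraries was in 1 entry, while the other held 1.41 of 16.4 FPKM in miR-1247 library 1 and 5.75 of 17.5 FPKM in library 2. With the highest entry alone the E18 minus control difference of Sox11 was 3.57 and still called. The sign of its miR-1247 minus control difference changed from 0.07 to −0.65, and that of Sox4 from 0.19 to −0.14, none of them called.

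**Figure D4:**
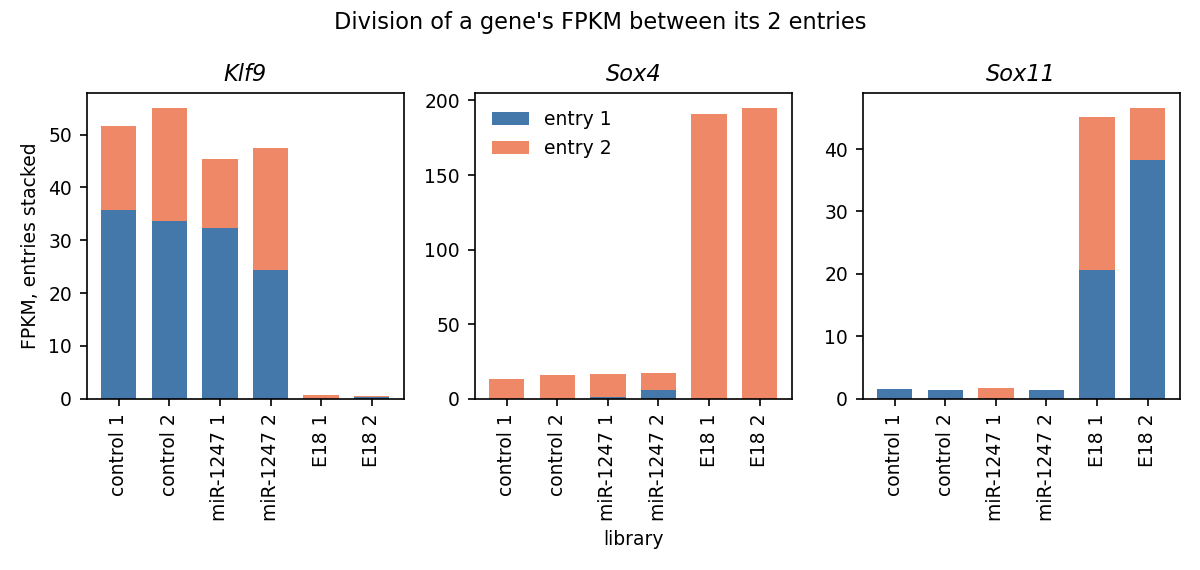
FPKM of the 2 table entries of Klf9, Sox4 and Sox11 stacked for each of the 6 libraries, with a linear axis of its own for each gene. The division between entries differs between libraries of the same group, as for Sox11 at E18 and in the miR-1247 libraries, while the stacked heights of such libraries are alike.

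Whether these factors moved with the mimic was asked within the adult, between the miR-1247 and the control libraries. None of the 8 was called in either direction, where 3.53% of all genes were called higher and 6.22% lower. At an unadjusted p under 0.05 there was 1 of the 8, Klf7, where 28.6% of all genes had such a p. It was 1.37-fold lower in miR-1247 RGCs (−0.42 ± 0.121, 95% interval −0.71 to −0.13, adjusted p = 0.0788), with both miR-1247 values below both control values. When the libraries were scaled to equal totals Klf7 was called lower (−0.51, adjusted p = 0.0381), and over 15 alternatives its adjusted p ran from 0.0381 to 0.248. That scaling moved the median of all genes from −0.03 to −0.12, and the share of higher genes among those called from 36.2% to 14.9%.

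The other 4 Krüppel-like factors had lower means in miR-1247 RGCs as well, and none passed the test. Klf6 differed by −0.36 ± 0.178 (95% interval −0.79 to 0.07, adjusted p = 0.238), Klf16 by −0.26 ± 0.156 (−0.64 to 0.11), Klf9 by −0.20 ± 0.118 (−0.48 to 0.08) and Klf13 by −0.15 ± 0.138 (−0.49 to 0.18). Sox4 differed by 0.19 ± 0.101 (−0.05 to 0.43), Sox11 by 0.07 ± 0.143 (−0.27 to 0.41) and Sox12 by −0.06 ± 0.160 (−0.45 to 0.32). Sox11 and Sox4, which hold the seed matches printed above, were thus not lower in the summed values, and their intervals include 0. The groups did not overlap for 4 of the 8 genes (Klf7, Klf9, Klf16 and Sox4), as for 57.7% of all genes tested. The median difference was −0.18 over the 8 genes and −0.03 over all genes.

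For the E18 minus miR-1247 comparison the calls were 5 higher (Klf6, Klf7, Sox4, Sox11 and Sox12) and 1 lower (Klf9) of 8, beside 41.5% and 28.4% of all genes. In rank order of group means, E18 exceeded control, and control exceeded miR-1247, for Klf6, Klf7 and Klf13, while for Klf9 and Klf16 the order was control, miR-1247, E18. The 2 adult groups were not called different for any of the 8 genes.

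Other members of the families, fixed as lists with earlier results of these data known, moved in both directions at E18. Of 20 further Klf and Sp genes 9 have entries and were tested, of which 4 were higher at E18 and 2 lower (median 0.29, against 0.16 over all genes). These counts and those of the lists that follow stand beside 40.2% higher and 29.8% lower among all genes in E18 minus control, and beside 3.53% and 6.22% in miR-1247 minus control. Klf8 was at 11.2 ± 0.442 FPKM at E18 and 0.494 ± 0.236 FPKM in control (3.04 ± 0.196), Klf11 differed by 1.96 ± 0.160, Klf10 by 0.96 ± 0.157 and Sp1 by 0.74 ± 0.173. Klf12 was lower (−0.54 ± 0.112), as was Sp2 (−0.78 ± 0.255), whose call was lost without control library 1, control library 2 or E18 library 1 (adjusted p up to 0.131). None of the 9 was called in miR-1247 against control. Of 16 other Sox genes only Sox5 and Sox6, which belong to the SoxD group, have entries. Sox6 was higher at E18 (11.5 ± 0.542 against 2.14 ± 0.0394 FPKM in control) and Sox5 lower (1.20 ± 0.394 against 6.06 ± 0.909 FPKM).

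Klf9 is driven by nuclear hormone receptors, and 6 of 10 genes listed for such receptors, Klf9 targets and partners were tested. At E18 3 were higher and 3 lower. Thrb, the beta thyroid hormone receptor, went with Klf9 in direction, at 0.0439 ± 0.0620 FPKM at E18 and 4.33 ± 0.315 FPKM in control (−2.35 ± 0.178). Thra, the alpha receptor, was higher at E18, at 390 ± 8.98 against 188 ± 13.6 FPKM (1.05 ± 0.0596), as were the retinoid receptors Rxrg (1.52 ± 0.127) and Rara (0.64 ± 0.0955). Mapk10, a JNK kinase that binds Klf9, was lower (−0.66 ± 0.0734), and so was Rxrb (−0.31 ± 0.106), which lost its call under 7 of 14 alternatives. In miR-1247 against control Thrb was higher (0.79 ± 0.178) and Rxrg (−0.78 ± 0.127) and Mapk10 (−0.31 ± 0.0734) lower. Thrb and Mapk10 lost these calls without any one of the 6 libraries (adjusted p up to 0.190 and 0.171), and Rxrg in 5 of the 6 cases (up to 0.0819, kept without miR-1247 library 2).

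Of 13 genes tied to SoxC factors in young neurons, which include Klf6, 11 were tested and 9 were higher at E18, none lower (median 1.995). Dcx, a microtubule protein of migrating neurons, was at 159 ± 0.643 FPKM at E18 and 1.99 ± 0.0802 FPKM in control (5.74 ± 0.120). Cd24a, a surface protein of young neurons, differed by 5.66 ± 0.104, Igfbpl1 by 4.72 ± 0.195 and Dpysl3, a growth cone protein, by 4.56 ± 0.0629. In miR-1247 against control Cd24a (−0.999 ± 0.104) and Tubb3 (−0.52 ± 0.0387) were lower under all 14 alternatives run. Marcks (0.45 ± 0.0647), Map2 (0.29 ± 0.0568) and the locus of Elavl3 and Zfp653 (0.26 ± 0.0468) were higher. Map2 and the Elavl3 locus lost that call without any one of the 6 libraries (adjusted p up to 0.207 and 0.257), and Marcks in 5 of the 6 cases (up to 0.0858, kept without control library 1).

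Corepressors and coactivators that Krüppel-like factors bind were all 12 in the table, with 7 higher and 2 lower at E18 (median 0.49). The histone deacetylases Hdac2 (1.70 ± 0.0682) and Hdac1 (1.26 ± 0.174) and the Sin3 complex genes Sin3b (1.46 ± 0.0922) and Sap30 (1.84 ± 0.435) were higher. Sap30 lost its call without E18 library 1 or 2 (adjusted p up to 0.0603). The acetyltransferase Kat2b was lower (−0.56 ± 0.0976). In miR-1247 RGCs the corepressors Ctbp2 (0.59 ± 0.0810) and Ctbp1 (0.32 ± 0.0534) were higher than in control. Ctbp1 lost that call without any one of the 6 libraries (adjusted p up to 0.126), and Ctbp2 without any one of the 4 adult libraries (up to 0.0809).

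Of 20 other transcription factors tied to optic nerve regeneration 14 were tested, with 7 higher and 2 lower at E18 (median 0.40). Myc differed by 2.70 ± 0.246, Jun by 1.70 ± 0.0759, Smad1 by 1.68 ± 0.115 and Mycn by 1.24 ± 0.116. Ddit3, of the integrated stress response, was lower at E18 (−1.47 ± 0.143), as was Lmo4 (−0.76 ± 0.0912). Lmo4 alone was called in miR-1247 against control (0.40 ± 0.0912), and lost that call without any one of the 6 libraries (adjusted p up to 0.172).

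The genes whose pattern over the 6 libraries was most like that of Klf9, by the root mean square difference of centred log2(FPKM + 1) values, were Cpne6 (0.0954), Scg2 (0.130) and Eno1b (0.154). Cpne6, a calcium-binding copine, was at 49.9 and 50.7 FPKM in control, 47.6 and 51.7 FPKM in miR-1247 and 0.829 and 0.625 FPKM in E18 RGCs. For Sox11 they were Kcnh4 (0.106), Fnbp1l (0.117) and Slc18a2 (0.139). Kcnh4 is listed at 0 in all 4 adult libraries and was at 20.6 and 19.7 FPKM at E18. With 2 libraries in each of 3 groups this likeness rests on few values and says nothing of shared function.

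The libraries hold RGC transcripts in every group, with all 15 RGC markers in the table and Sncg, Thy1 and Tubb3 the highest of them. Their summed level ran from 3380 to 3426 FPKM in control, 2087 to 2116 FPKM in miR-1247 and 5637 to 5656 FPKM in E18 libraries. All 15 were called lower in miR-1247 than in control, and 12 were higher and 3 lower at E18. The 5 Krüppel-like factors also had lower means in miR-1247, none of them called, and a link was not tested. Of these markers only Tubb3 has its alternatives given here, and it held that call under all of them. Most other list genes named with a call in miR-1247 minus control lost it under some alternative. Of 10 amacrine markers 6 were present, 5 of them lower and 1 higher at E18. Their sum was 1576 to 1616 FPKM in control, 1593 to 1623 in miR-1247 and 927 to 957 FPKM at E18. Against control, 2 of the 6 were called higher in miR-1247 and 1 lower. Of 10 Müller and astrocyte markers 5 were present, 4 of them lower and 1 higher at E18. They summed to 1063 to 1409 FPKM in control, 1713 to 1825 in miR-1247 and 167 FPKM in both E18 libraries. The defining markers Rlbp1, Slc1a3, Aqp4 and Gfap were not among the 5 present. In miR-1247 against control 1 of the 5 was called higher and 0 lower. Glul was at 293 ± 242 FPKM in control and 714 ± 116 FPKM in miR-1247, so its control libraries lay far apart. Aldoc was at 521 ± 13.5 and 522 ± 19.0 FPKM, and Dkk3 at 378 ± 17.7 and 481 ± 7.10 FPKM. The summed rod and cone markers (3 of 12 present, 2 of them called lower at E18) had the same order as Klf9, with 45.6 to 46.8 FPKM in control, 24.3 to 26.9 FPKM in miR-1247 and 5.57 to 6.41 FPKM at E18, with Sag listed at 0 in both miR-1247 libraries. Of 10 progenitor markers Hes6 and Dapl1 were present and both were higher at E18, as were the SoxC genes (sum 18.6 to 19.5 FPKM in control, 19.6 to 22.4 FPKM in miR-1247 and 49.5 to 52.9 FPKM at E18), with Dapl1 listed at 0 in all 4 adult libraries. Of 9 bipolar markers 4 were present, 1 of them higher at E18 (Isl1, which RGCs also express) and 2 lower (sum 40.0 to 48.4 FPKM in control, 49.6 to 52.8 FPKM in miR-1247 and 175 to 176 FPKM at E18). Of 6 fibroblast and oligodendrocyte markers Mbp and Col6a1 were present and both were higher in miR-1247 than in control (sum 30.2 to 32.1 FPKM in control, 48.5 to 56.2 FPKM in miR-1247 and 28.2 to 32.4 FPKM at E18). Of 7 microglial markers and of 6 endothelial and pericyte markers 0 were present. The part of these other cells in the differences of the Krüppel-like and Sox factors was not tested.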

How the data were processed

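Poly-A RNA of 6 mouse RGC libraries was analysed from 1 deposited table of FPKM values. Per the labels and the submitters' processing notes, the authors mapped reads to mm39 with HISAT2 and computed FPKM with Cufflinks and Cuffdiff; versions, and the filter behind the 11104 entries, are not given in the sources used here. A constant of 1e-05 in every deposited value was taken off. The authors' log2 ratios in the deposited table matched those recomputed from the FPKM to within 0.0021 and were used for nothing else. Entries of 1 locus were taken once and the loci of a gene name summed, which gave 10162 genes, 668 of them with more than 1 locus. Depth is unknown, so no counting interval is given. Listed totals ran from 339224 to 392238 FPKM, and libraries of a group correlated at 0.980 to 0.985 (r of log2 values), those of E18 and adult at 0.692 to 0.701.

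Genes with a mean of at least 1 FPKM (9987) entered 1 limma 3.58.1 model (R 4.3.3) of log2(FPKM + 1) with 3 group means and a variance trend, two-sided, with Benjamini-Hochberg adjustment over all genes tested. The fit was run on simulated data in which only a small part of the genes differed, all at E18. Far more genes were called at E18 here, so that run does not gauge the calls of these data. Gene models are from GENCODE vM39 (GRCm39, the build of the deposited coordinates), and promoter and microRNA sequences from RefSeq (GRCm38.p6). The genes and lists were chosen with earlier results of these data known. The rule for naming genes took all members, up to 4 called genes per list, direction and contrast, up to 3 markers per cell type by mean FPKM, and the 3 genes of closest pattern; 1 gene that it would name is not reported here. Tables were handled in pandas 2.3.3 with NumPy 2.4.6 (Python 3.11.15) and drawn with Matplotlib 3.10.9. Alternatives were pseudocounts, filters, scalings, no variance trend, single loci, only the 4 libraries compared, a replicate block and leaving out each library.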

Additional observations from a re-analysis of the deposited data

How the results depend on the processing

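Of 360 values of single genes over the 3 contrasts and 15 alternatives, 351 kept their direction and side of the threshold, 3 lost a call, 2 gained one and 4 changed sign without being called. The sign changes were those of Sox4 (−0.14) and Sox11 (−0.65) with single loci and of Sox12 without control library 1 (0.02) or miR-1247 library 2 (0.15), all in miR-1247 minus control. The calls lost or gained are given above. Leaving out 1 library left 6 or 7 genes called in E18 minus control, 6 in E18 minus miR-1247 and 0 in miR-1247 minus control, where equal totals gave 1 (Klf7).

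The count of all genes called in miR-1247 minus control, 974, was 343 with no variance trend, 584 with the replicate block and 123 to 275 without 1 library (185 and 176 without control library 1 or 2, 123 and 146 without miR-1247 library 1 or 2, 249 and 275 without E18 library 1 or 2). The calls of that contrast were 36.2% higher, 46.6% under median ratio scaling (460 higher, 527 lower) and 14.9% with equal totals (136 higher, 777 lower). In E18 minus control 57.4% of calls were higher, and in E18 minus miR-1247 59.4%, against 49.8% (3400 higher, 3427 lower) and nearly equal numbers (3422 higher, 3426 lower) under median ratio scaling. Deviations of libraries with the same number correlated at −0.00812 to 0.00353. That shows no shift shared over the genes, but cannot tell whether such libraries came from the same animals, litter or day. The replicate block changed no call of the 8 genes.

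The E18 minus control difference of the Klf index, 3.47, was 3.95 with a pseudocount of 0.1, 1.82 without Klf9 and 3.32 to 3.61 without 1 library. For E18 minus miR-1247, 3.65, these were 4.15, 2.002 and 3.62 to 3.68, and 3.56 with single loci. For miR-1247 minus control it was −0.18, and −0.33 to −0.04 without 1 library. The SoxC index, 3.49 for E18 minus control, was 3.77 with a pseudocount of 0.1, 3.34 under median ratio scaling, 3.42 with equal totals, 3.26 with single loci and 3.47 to 3.51 without 1 library. For E18 minus miR-1247, 3.42, these were 3.69, 3.25 (median ratio), 3.55 (single loci) and 3.35 to 3.5040. In miR-1247 minus control its 0.06 turned to −0.0177 with equal totals, −0.28 with single loci and −0.0145 to 0.14 without 1 library. The cause of these shifts was not tested. Of the calls of 41 list genes in E18 minus control 33 held under every alternative run on summed loci, and of 11 in miR-1247 minus control 2 did. Depth is unknown, so levels near the filter, such as Sox11 in the adult, carry no counting error here.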
